A study of Rattus norvegicus with 24 samples.

Results

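A set of 5 histone genes of the H2A type, Hist2h2aa3, Hist2h2aa2, Hist1h2ac, Hist1h2ah and LOC103690190, was followed through 6 culture conditions of rat oligodendrocyte lineage cells. These are 5 of the 32883 genes in the count tables, and they were picked by name because an earlier look at these data had listed them together as lower in dolutegravir-treated oligodendrocytes (OLs) than in vehicle-treated OLs. For these 5 genes, that contrast and every contrast that shares its libraries are therefore given below as a description without a test.

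The cells were primary cultures grown from the cerebral cortices of newborn Sprague Dawley rat pups in the first days of life, and cultures from independent litters were taken as separate replicates. Oligodendrocyte precursor cells (OPCs) were kept for 24 hours in proliferation medium, either untreated, with the vehicle dimethyl sulfoxide (DMSO, 0.04%) or with 8 µM dolutegravir (DTG), an HIV-1 integrase inhibitor. OLs received the same 3 treatments during 24 hours of proliferation and then for 72 hours in differentiation medium. RNA was enriched on oligo d(T) beads, so transcripts with a poly(A) tail were selected, and 24 libraries were sequenced, 4 in each group. The cultures model the lineage outside the brain, without axons to myelinate, and the drug was present at both stages in DTG-treated OLs, so that its effects on proliferation and on differentiation cannot be told apart there. The third untreated replicate of OPCs and of OLs was counted on a different list of 30560 genes that holds none of the 5 genes, and all values below come from the other 22 libraries, with 3 untreated replicates (1, 2 and 4) and 4 replicates in each treated group.

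H2A is a core histone that pairs with H2B, and these dimers join H3 and H4 to form the nucleosome. Most core histone genes lie in clusters without introns and are transcribed mainly while DNA is copied, and their mRNAs usually end in a stem-loop in place of a poly(A) tail. Some of these genes are also known to give transcripts with a poly(A) tail in cells that leave the cell cycle, as OPCs do when they become OLs. The counts say nothing of where a transcript ended, so the word polyadenylated rests on the bead enrichment alone.

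In the Rnor_6.0 coordinates of the count tables, Hist2h2aa2 (ENSRNOG00000047898) lies at chr2:198381798-198382190 on the minus strand and Hist2h2aa3 (ENSRNOG00000052555) at chr2:198388809-198389201 on the plus strand, 6618 bases apart and transcribed away from each other. Hist1h2ah (ENSRNOG00000049649, chr17:43632397-43632789, plus strand), LOC103690190 (ENSRNOG00000060492, chr17:44747796-44748188, minus strand) and Hist1h2ac (ENSRNOG00000059748, chr17:44794130-44794522, plus strand) lie on chromosome 17, the last 2 separated by 45941 bases. Each gene is 1 exon of 393 bases, a coding length with no untranslated part, so that CPM, counts scaled to each library's total with TMM factors, need no correction for length when the 5 are set side by side. Only uniquely mapped reads were counted, and a level can be too low where a gene has a near-identical copy. Each is overlapped on the opposite strand by an annotated gene that covers 34.9 to 35.1% of its bases and has 0 counts in all 22 libraries. The strand setting of the counting was not stated, so reads of the 2 strands cannot be told apart.

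The 200 bases before the RefSeq transcription start of each gene, in build GRCr8, are shown because genes that share a readout are often compared by their promoters. Capitals mark matches on either strand to 5 short motifs: TATAA, the core of the TATA box, CCAAT, the box named after its letters, ATTTGCAT, known as the octamer, TTTCGCGC, an element of the E2F type, and CAAATGAG, which was chosen after the sequences had been seen and overlaps the octamer in Hist1h2ah. The windows are, in the order of the lines below, chr2:186490765-186490964 (minus strand), chr2:186497071-186497270 (plus strand), chr17:41812178-41812377 (plus strand), chr17:47174415-47174614 (plus strand) and chr17:47404168-47404367 (minus strand). RefSeq gives Hist2h2aa3 as a synonym of both its Hist2h2aa2 and its H2ac18 entries. The H2ac18 entry was taken for Hist2h2aa3 from its strand and the order of the genes, so this match is not certain. The other entries carry the same names as the genes. In GRCr8, Hist1h2ac lies before LOC103690190, the reverse of their order in Rnor_6.0, and Hist1h2ah lies farther from both. The chromosome 17 layout given above therefore holds for Rnor_6.0 only.
Hist2h2aa2: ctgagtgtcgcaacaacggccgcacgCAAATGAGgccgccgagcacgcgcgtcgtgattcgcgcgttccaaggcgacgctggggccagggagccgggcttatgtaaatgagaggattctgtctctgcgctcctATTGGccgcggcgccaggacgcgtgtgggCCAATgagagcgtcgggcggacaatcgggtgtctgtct
Hist2h2aa3: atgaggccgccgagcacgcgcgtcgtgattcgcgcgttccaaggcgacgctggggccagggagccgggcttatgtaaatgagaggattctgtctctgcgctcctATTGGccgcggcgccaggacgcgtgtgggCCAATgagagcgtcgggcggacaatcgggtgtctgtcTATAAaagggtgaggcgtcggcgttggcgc
Hist1h2ah: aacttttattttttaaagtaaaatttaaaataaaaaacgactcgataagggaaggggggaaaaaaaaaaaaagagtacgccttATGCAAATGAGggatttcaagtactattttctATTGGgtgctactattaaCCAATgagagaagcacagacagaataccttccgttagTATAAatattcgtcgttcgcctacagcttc
Hist1h2ac: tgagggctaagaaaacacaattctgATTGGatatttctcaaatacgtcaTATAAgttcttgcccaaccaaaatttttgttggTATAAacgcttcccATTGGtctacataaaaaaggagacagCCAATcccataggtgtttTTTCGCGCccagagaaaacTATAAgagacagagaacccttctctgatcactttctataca
LOC103690190: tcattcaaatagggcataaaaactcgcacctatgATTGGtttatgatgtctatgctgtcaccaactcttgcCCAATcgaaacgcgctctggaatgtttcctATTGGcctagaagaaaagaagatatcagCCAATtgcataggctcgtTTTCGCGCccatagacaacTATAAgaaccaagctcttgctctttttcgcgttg

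All 5 windows hold CCAAT, in 2 to 4 copies, against 29.2% of the 33469 RefSeq promoter windows of the same length. TATAA is in 4 of the 5, at 30 to 41 bases before the start at its nearest, against 19.7% of all windows. The full RefSeq entries of Hist2h2aa2 and Hist2h2aa3 run farther upstream and past the start than the windows printed. They are the same over 271 of 271 aligned bases when shifted by 29 bases. The window of Hist2h2aa2 thus ends on the first base of the TATAA that Hist2h2aa3 shows. The window of Hist2h2aa3 begins inside the CAAATGAG that Hist2h2aa2 shows. The other pairs of entries matched at no more than 39.2% of bases at their best shift. The E2F-type element is in Hist1h2ac, 60 bases before the start, and in LOC103690190, 53 bases before it, and in 0.212% of all windows. The octamer is in Hist1h2ah alone of the 5, against 1.25% of all windows, and CAAATGAG is in 0.816% of them. A match is a description of letters and not of a bound site.

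The 5 genes had few reads. Gene counts per library ran from 13241279 to 18499994, and a single library held between 0 and 213 reads of any 1 of the 5. One library, the third DMSO replicate of OPCs, held 0 reads of Hist2h2aa3, which at its depth allows up to 0.148 CPM (3 counts). ERCC spike-in RNA, added to each sample, took from 1.06 to 7.19% of the counts, with medians of 1.99% in DMSO-treated OPCs, 1.58% in DTG-treated OPCs, 3.71% in DMSO-treated OLs and 2.89% in DTG-treated OLs. Cell type markers could be matched only where the study's own lists of differing genes named them. Their differences between the stages were largely set by that choice and are no independent check of the cell labels. Of the 3 OL markers with an identifier, Mbp, Mog and Enpp6 were all higher in untreated OLs than in untreated OPCs, and the 2 OPC markers Pdgfra and Cspg4 were both lower. The 2 neuron markers with an identifier, Snap25 and Gad1, summed to between 18.1 and 57.0 CPM in untreated OPCs and to between 1.25 and 3.14 CPM in untreated OLs. Astrocyte and microglia markers were not analysed here.

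**Figure D1:**
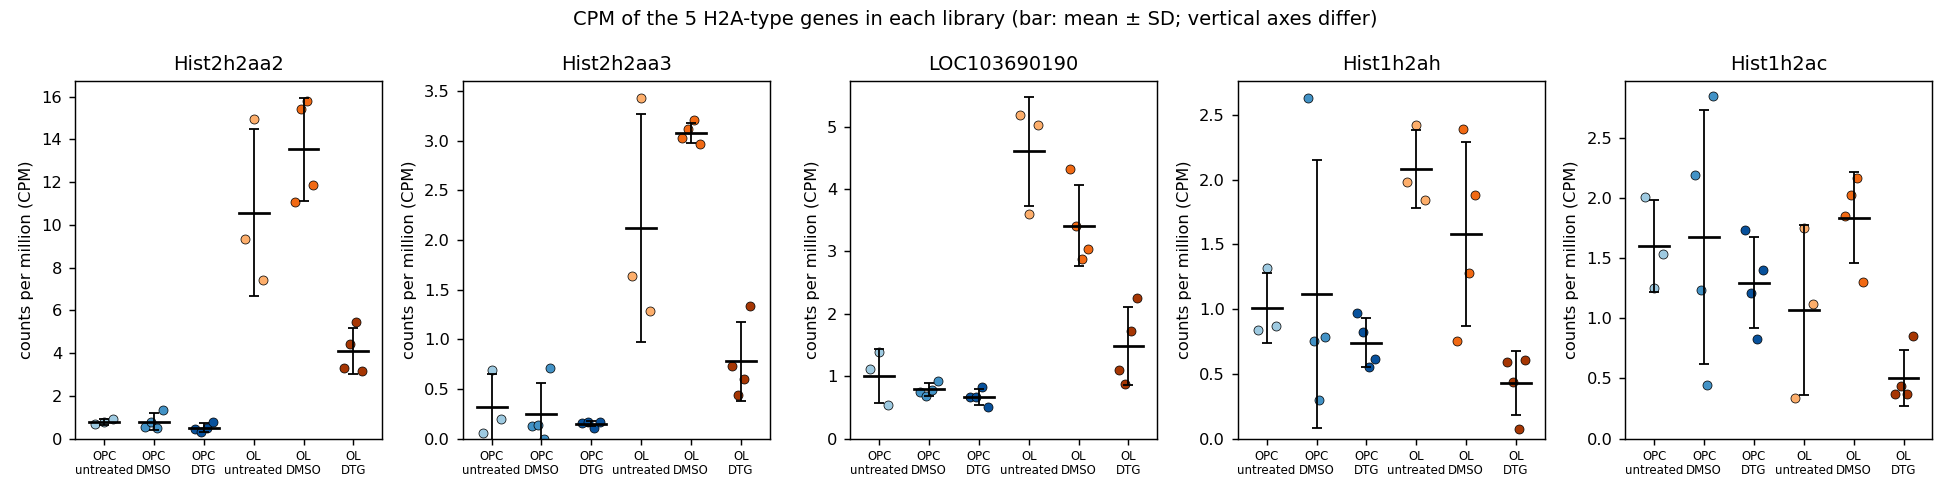
CPM of each gene in each of the 22 libraries (points), with the mean and SD of each group (bars), and with a vertical axis of its own for each gene. Hist2h2aa2, Hist2h2aa3 and LOC103690190 sit low in all 3 OPC groups and high in untreated and DMSO-treated OLs, Hist1h2ac overlaps between OPCs and those OLs, and DTG-treated OLs lie below DMSO-treated OLs for all 5.

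Untreated OLs were compared with untreated OPCs to ask how the 5 genes differ between the stages without any treatment; none of these libraries belongs to the contrast that listed the genes. Of the 5 genes, 4 were called higher in OLs, Hist2h2aa2 by the most, and the fifth, Hist1h2ac, was not called. A call means an adjusted p under 0.05 and a log2 fold change beyond 1 in either direction, and 11.1% of the 13110 genes tested were called higher and 11.9% lower. Hist2h2aa3 and LOC103690190 passed the filter on low counts through the OL libraries only, so that their presence in the test already depended on being high there. Hist1h2ac passed it through the OPC libraries only. Fewer cells of a type and less RNA per cell cannot be told apart in these bulk samples.

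Hist2h2aa2, a gene of the chromosome 2 cluster, had the highest mean level of the 5 in each OL group, but not in OPCs, where Hist1h2ac had a higher mean in all 3 groups. It stood at 0.670, 0.753 and 0.935 CPM in untreated OPCs and at 9.36, 14.95 and 7.42 CPM in untreated OLs. The groups were far apart, with the lowest OL library well above the highest OPC library. The difference was 3.73 on the log2 scale (SE 0.38, n = 3 per group; Benjamini-Hochberg adjusted p = 5.15e-05, quasi-likelihood test of edgeR), a 13.3-fold higher level with a 95% confidence interval of 7.37 to 23.9. It was called in all 8 alternatives that gave it a value.

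Hist2h2aa3, its neighbour in the same cluster, was at 0.0558, 0.691 and 0.200 CPM in untreated OPCs, from 1, 11 and 3 reads, and at 1.64, 3.43 and 1.28 CPM in untreated OLs, from 24, 41 and 23 reads. All 3 OL libraries lay above all 3 OPC libraries, and the spread among the OPC libraries was wide. Hist2h2aa3 entered the test through its OL libraries only, so its calls are no independent support for a higher level there. The log2 fold change was 2.69 (SE 0.66; adjusted p = 0.00899, the same edgeR test), and it was also called in all 8 alternatives, with adjusted p from 0.000866 to 0.0438.

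LOC103690190, in the chromosome 17 cluster, was at 1.12, 1.38 and 0.534 CPM in untreated OPCs. In untreated OLs it was at 5.19, 3.59 and 5.02 CPM, again without overlap. The same limit of the filter holds for its calls. Its log2 fold change was 2.17 (SE 0.37; adjusted p = 0.00117, the same edgeR test). Scaling to the ERCC counts lowered it to 1.57 and ended the call (adjusted p = 0.0838). Under that scaling the median of all genes moved to -0.59, and Hist2h2aa2 (3.05) and Hist2h2aa3 (2.01) stayed called.

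Hist1h2ah was at 0.837, 1.32 and 0.868 CPM in untreated OPCs and at 1.98, 2.42 and 1.84 CPM in untreated OLs. The groups did not overlap, but the distance was small. Its log2 fold change of 1.03 (SE 0.35; adjusted p = 0.0395, the same edgeR test) was called by a narrow margin, and the call was lost in 6 of the 8 alternatives, including DESeq2's Wald test and each of the 3 fits that left out a replicate, with adjusted p from 0.0366 to 0.695 over the 8.

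Hist1h2ac was the exception in direction. It was at 2.01, 1.26 and 1.54 CPM in untreated OPCs and at 0.342, 1.75 and 1.12 CPM in untreated OLs, where replicate 1 had 5 reads and replicates 2 and 4 had 21 and 20. The groups overlapped, and the log2 fold change was -0.63 with a 95% confidence interval of -1.70 to 0.44 (adjusted p = 0.331, the same edgeR test), an interval that holds differences of either sign. Without replicate 1 it was 0.0041.

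Of the 5 genes, 4 had no overlap between the 2 stages, all with the OLs higher, where 25.5% of all genes tested showed that pattern. The median log2 fold change of the 5 was 2.17 and that of all genes tested -0.02. Among the 4 are Hist2h2aa3 and LOC103690190, which passed the filter on low counts through the OL libraries only, and 2.17 is the value of LOC103690190. This count and this median are therefore a description and no independent support. All 23 of the S-phase genes tested were called lower in untreated OLs, where 11.9% of all genes were. They were named through the study's lists of differing genes, which made this outcome likely. Their sums were 440 to 571 CPM in untreated OLs against 2561 to 3921 CPM in untreated OPCs. OL markers, named the same way, summed to between 3971 and 9957 CPM against 151 to 345 CPM. The part that these lists have in the differences of the 5 genes was not tested.

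DTG-treated OPCs were compared with DMSO-treated OPCs to ask whether the 5 genes differ with the drug before differentiation, in libraries outside the contrast that listed them. None was called, and neither was any of the 13270 genes tested (0%). In edgeR's quasi-likelihood test 69 genes had an unadjusted p under 0.05. DESeq2's Wald test also called 0, with 114 genes at an unadjusted p under 0.05. Both counts are lower than chance alone would give. When edgeR's test also allowed for replicate number, it called 0 genes and put 871 under that p. Deviations of same-numbered libraries in these groups correlated at -0.07 to 0.79, which the unpaired fit ignored. That fit can thus miss differences, and its lack of calls does not show that none exist. Hist2h2aa2 was at 0.564, 0.754, 0.492 and 1.35 CPM with DMSO and at 0.459, 0.330, 0.498 and 0.786 CPM with DTG, groups that overlapped. Its log2 fold change was -0.56 with a 95% confidence interval of -1.52 to 0.40. The estimates were -0.55 for Hist1h2ah (-1.87 to 0.77), -0.32 for Hist1h2ac (-1.42 to 0.78) and -0.24 for LOC103690190 (-0.91 to 0.44), each with an adjusted p of 0.907 (edgeR).

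Hist1h2ah was widely spread among the DMSO-treated OPC libraries, at 2.63, 0.754, 0.295 and 0.782 CPM, where replicate 1 stood far above the others. With DTG it was at 0.969, 0.826, 0.554 and 0.618 CPM, inside that range. Without replicate 1 the estimate turned to 0.21. Hist2h2aa3 had too few reads for the test, at 2, 2, 0 and 10 reads with DMSO and 3, 3, 2 and 3 with DTG. All 5 genes overlapped between these groups, where 0.196% of all genes had every DTG library above every DMSO library and 0.279% the reverse. Each of the 4 intervals holds differences of either sign.

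DMSO-treated OPCs were set against untreated OPCs as a check of the vehicle. Again 0 genes of 13244 were called (0%; 94 at an unadjusted p under 0.05 in edgeR's quasi-likelihood test, and DESeq2's Wald test called 0, with 173), and all 5 genes overlapped between the groups, where 0.506% of all genes had every DMSO library higher and 0.574% every DMSO library lower. The log2 fold change was -0.34 in LOC103690190, 0.0019 in Hist2h2aa2, 0.04 in Hist1h2ac and 0.15 in Hist1h2ah, each with a standard error of 0.39 to 0.64 and an adjusted p of 0.99991. Hist2h2aa3 was again below the filter. The limit of the unpaired fit holds here too. Allowing for replicate number, with 3 libraries per group, edgeR's test called 4 of 13073 genes, none of them among the 5. It put 341 genes at an unadjusted p under 0.05.

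DTG-treated OLs against DMSO-treated OLs is the contrast behind the choice of the genes, and its values are a description. Of 12710 genes, 0.212% were called lower and 3.92% had all DTG libraries below all DMSO libraries. All 5 genes had that second pattern, as the choice made likely. Hist2h2aa2 was at 11.1, 15.4, 15.8 and 11.9 CPM with DMSO and at 3.31, 4.43, 5.46 and 3.16 CPM with DTG. The DTG values were less spread than the gap between the groups, and the level was 3.35-fold lower (log2 fold change -1.74, SE 0.23). Since the genes were picked for low values here, the sizes in this contrast can be too large, and no interval is given for them.

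Hist2h2aa3 was at 3.02, 3.11, 3.20 and 2.97 CPM with DMSO, a tight group, and at 0.735, 0.434, 0.598 and 1.34 CPM with DTG, where replicate 4 was the highest. The level was 3.79-fold lower (log2 fold change -1.92, SE 0.32). Hist1h2ac was at 1.85, 2.03, 2.16 and 1.302 CPM with DMSO and at 0.368, 0.434, 0.374 and 0.852 CPM with DTG, from 5, 5, 5 and 14 reads. Replicate 4 was the lowest DMSO library and the highest DTG library, which narrowed the gap to 1.302 against 0.852 CPM. The level was 3.47-fold lower (log2 fold change -1.80, SE 0.37).

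Hist1h2ah was at 0.755, 2.39, 1.28 and 1.88 CPM with DMSO and at 0.588, 0.434, 0.0747 and 0.609 CPM with DTG, from 8, 5, 1 and 10 reads. The groups came close, since the lowest DMSO library stood little above the highest DTG library, and the level was 3.59-fold lower (log2 fold change -1.84, SE 0.49). LOC103690190 was at 4.33, 3.40, 2.88 and 3.04 CPM with DMSO and at 1.10, 0.869, 1.72 and 2.25 CPM with DTG. It had the smallest difference of the 5, 2.25-fold lower (log2 fold change -1.17, SE 0.31).

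Other features of these libraries differed along with the 5 genes. The OL markers Mbp, Mog and Enpp6 summed to between 4320 and 11473 CPM with DMSO and to between 1761 and 4378 CPM with DTG. Most of that sum was Mbp, which was not called (log2 fold change -1.40, adjusted p = 0.0865, edgeR's quasi-likelihood test). Enpp6 was not called either (-1.09, adjusted p = 0.123, the same edgeR test). Mog alone was called lower (-1.01, adjusted p = 0.0116, the same edgeR test). The paper, which used DESeq2, reported lower Enpp6, Mbp and Mog transcripts with DTG in OLs. It also reported a significant decrease of Mbp by qRT-PCR. The 23 S-phase genes summed to between 479 and 655 CPM with DMSO and to between 380 and 512 CPM with DTG, with 0 of 23 called. Their log2 fold changes were below 0 in 21 and above 0 in 2, with a median of -0.34. Scaling to spike-in totals put the median of all genes at 0.59 in place of 0.01. On that scale the log2 fold change was -1.14 in place of -1.74 in Hist2h2aa2, -1.28 in place of -1.92 in Hist2h2aa3, -0.53 in place of -1.17 in LOC103690190, -1.21 in place of -1.84 in Hist1h2ah and -1.16 in place of -1.80 in Hist1h2ac. The part of any of these in the values of the 5 genes was not tested.

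**Figure D2:**
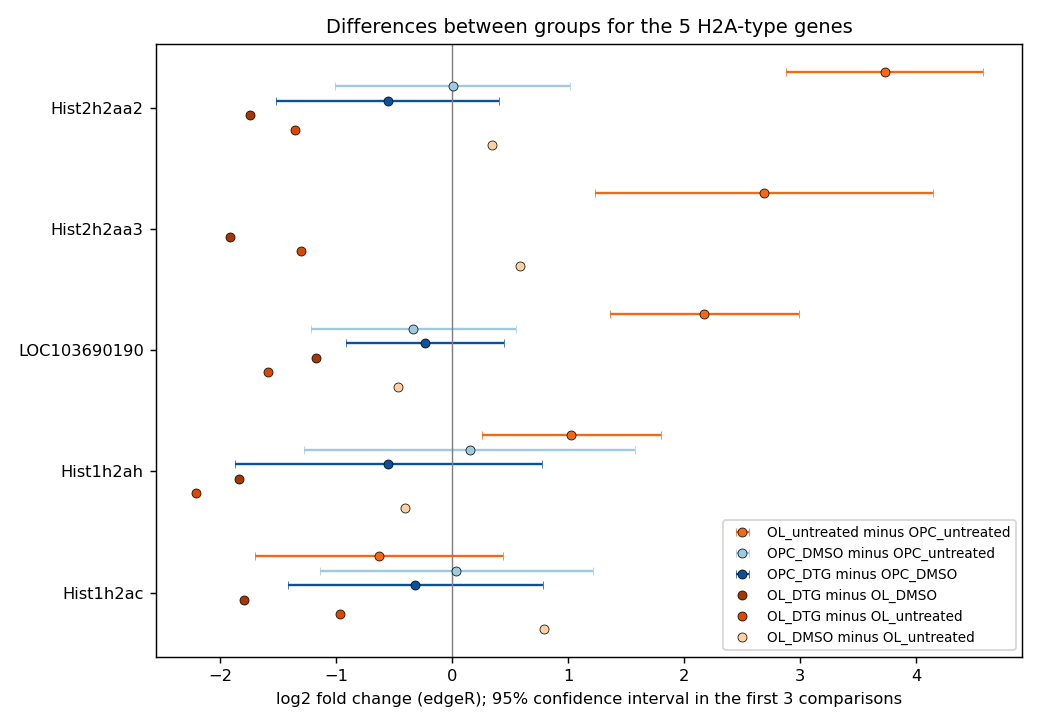
Log2 fold change from edgeR (points) for each gene in 6 comparisons, each named as the first group minus the second, with the 95% confidence interval (bars) in the 3 comparisons outside the treated OLs. The stage difference between untreated cells runs from 3.73 for Hist2h2aa2 to -0.63 for Hist1h2ac, the OPC comparisons lie around 0 with wide intervals, and no value is drawn for Hist2h2aa3 in them because it was below the filter on low counts.

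The untreated OLs give a second reference for the DTG-treated OLs, although they share the DTG libraries with the contrast above and so are no independent evidence. DTG-treated OLs lay below untreated OLs with log2 fold changes of -1.36 in Hist2h2aa2 and -1.31 in Hist2h2aa3 on chromosome 2, and of -1.59 in LOC103690190, -2.21 in Hist1h2ah and -0.97 in Hist1h2ac on chromosome 17. The libraries did not overlap for Hist2h2aa2, Hist1h2ah and LOC103690190, while 6.06% of all genes had that pattern; 0.0698% of genes were called lower. For Hist1h2ac the standard error was 0.55, and untreated replicate 1, with 5 reads, was as low as the DTG libraries. Between DMSO-treated and untreated OLs all 5 genes overlapped, with log2 fold changes from -0.47 for LOC103690190 to 0.79 for Hist1h2ac, and 0% of genes were called (1440 at an unadjusted p under 0.05, edgeR); 5.39% of all genes did not overlap with DMSO higher and 6.25% with DMSO lower.

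Ordered by mean level, the 6 groups fell into different sequences for different genes. Hist2h2aa2 was highest in DMSO-treated OLs, at 13.5 ± 2.42 CPM (SD, n = 4), followed by untreated OLs at 10.6 ± 3.91 CPM (n = 3), which overlapped with them. DTG-treated OLs came next at 4.09 ± 1.07 CPM (n = 4), with no overlap with the groups on either side, and the 3 OPC groups, at 0.519 to 0.790 CPM, overlapped with one another. LOC103690190 was highest in untreated OLs, at 4.60 ± 0.88 CPM (n = 3), then in DMSO-treated OLs at 3.41 ± 0.65 CPM (n = 4). In DTG-treated OLs it was at 1.49 ± 0.62 CPM (n = 4), a range that overlapped with that of untreated OPCs, at 1.01 ± 0.43 CPM (n = 3).

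Hist2h2aa3 followed the order of Hist2h2aa2 among the OL groups, at 3.08 ± 0.10, 2.12 ± 1.15 and 0.777 ± 0.394 CPM in DMSO-treated, untreated and DTG-treated OLs, and was at 0.149 to 0.316 CPM in the OPC groups; each group overlapped with the next in this order. For Hist1h2ac and Hist1h2ah too, every group overlapped with its neighbours. Their lowest group was DTG-treated OLs, at 0.507 ± 0.232 CPM (n = 4) for Hist1h2ac and 0.427 ± 0.247 CPM (n = 4) for Hist1h2ah, below the means of all 3 OPC groups. Against DTG-treated OPCs, DTG-treated OLs were higher without overlap for 3 genes, Hist2h2aa3, Hist2h2aa2 (log2 fold change 2.96) and LOC103690190 (1.19), where 25.9% of all genes had that pattern, but were below them for Hist1h2ac (-1.302) and Hist1h2ah (-0.77, SE 0.46). In this pair of groups Hist2h2aa3 was below the filter on low counts, so that share does not cover it. Hist2h2aa2 and LOC103690190 passed the filter through the OL libraries only. With scaling to the ERCC counts the value of LOC103690190 in this pair of groups was -0.049. In the DMSO-treated cells the same 3 genes were higher in OLs without overlap (21.6% of all genes), with log2 fold changes of 4.15 for Hist2h2aa2, 3.79 for Hist2h2aa3 and 2.13 for LOC103690190, while Hist1h2ah (0.54) and Hist1h2ac (0.20) overlapped. In the DMSO-treated cells all of the genes but LOC103690190 passed the filter through the OL libraries only. All these values rest on the OL libraries that led to the choice of the genes and are a description.

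The sum of the 5 genes shows the weight of the chromosome 2 pair. The sum was at 4.69, 5.40 and 4.07 CPM in untreated OPCs and at 18.5, 26.2 and 16.7 CPM in untreated OLs. In DMSO-treated OLs it was at 21.0, 26.4, 25.3 and 21.1 CPM, and in DTG-treated OLs at 6.10, 6.60, 8.22 and 8.22 CPM. Hist2h2aa2 and Hist2h2aa3 made up a mean of 19.97 to 23.4% of the 5 genes' reads in the 3 OPC groups and 60.6 to 70.7% in the 3 OL groups. No OPC library exceeded 31.2% and no OL library was below 52.2%.

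**Figure D3:**
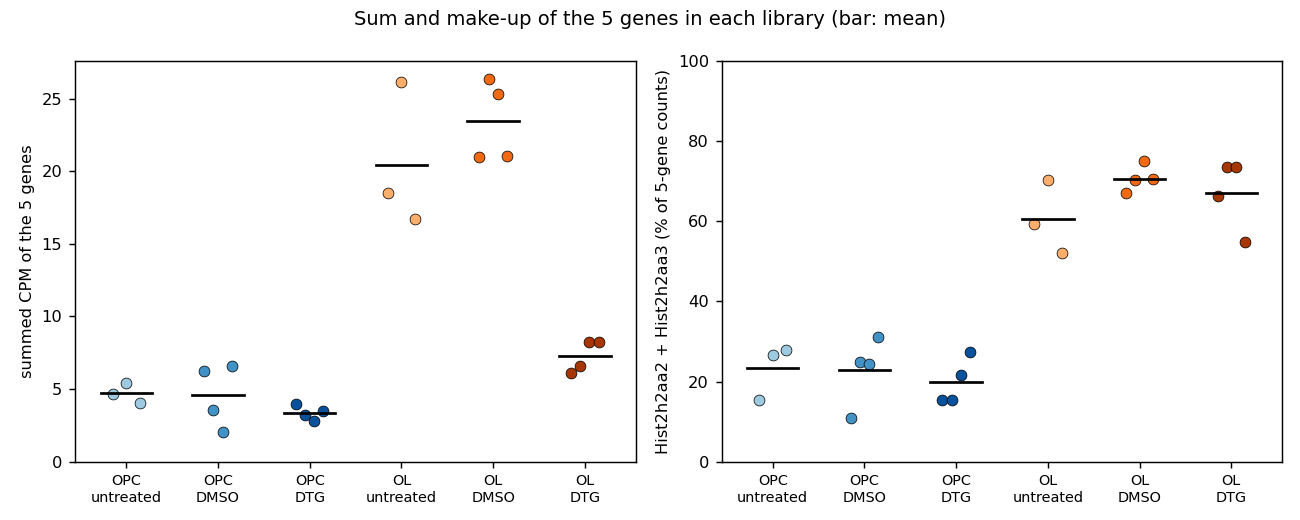
Left, the summed CPM of the 5 genes in each library; right, the percent of the 5 genes' reads that came from Hist2h2aa2 and Hist2h2aa3 together; points are libraries and bars are group means. The sum of DTG-treated OLs (6.10 to 8.22 CPM) lies below the other OLs and reaches into the OPC range (up to 6.61 CPM), whereas the share of the chromosome 2 pair in them (54.8 to 73.7%) lies in the range of the other OL groups.

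Within the chromosome 2 pair, Hist2h2aa2 gave most reads in every group. Hist2h2aa3 gave 88 of the 537 reads of the pair in untreated OLs, or 16.4% (Wilson 95% confidence interval 13.5 to 19.8%), 168 of 903 in DMSO-treated OLs (18.6%, 16.2 to 21.3%) and 45 of 266 in DTG-treated OLs (16.9%, 12.9 to 21.9%). In OPCs the pair had 49 to 63 reads per group, of which Hist2h2aa3 gave 28.3% untreated (17.97 to 41.6%), 22.2% with DMSO (13.7 to 33.9%) and 22.4% with DTG (13.0 to 35.9%). These intervals cover counting error only. Single libraries of DTG-treated OLs ran from 8.93% in replicate 2 (3.87 to 19.3%) to 29.7% in replicate 4 (20.5 to 40.9%), and these intervals do not overlap. A read that fits both copies was lost to both, and the split between near-identical copies is uncertain.

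The 5 genes were set beside other histone genes and the factors that act on histone mRNA. Only genes named in the study's own lists of differing genes could be matched to identifiers, so a list named this way holds more differing genes than a full one would. Of 8 other named histone genes, 7 were called between untreated OLs and untreated OPCs, 1 higher and 6 lower, where 11.1% of all genes tested were called higher and 11.9% lower. The lower ones were the replication-type genes Hist1h2bk (log2 fold change -4.88), Hist1h2af (-1.98) and Hist1h2an (-1.34), the H2A variants H2afx (-1.93), which marks DNA breaks when phosphorylated, and H2afz (-2.04), and the centromere histone Cenpa (-4.25). Hist1h2af, an H2A gene of chromosome 17 within 50 kb of Hist1h2ah, was at 3.03 ± 0.78 CPM in untreated OPCs and 0.776 ± 0.126 CPM in untreated OLs (n = 3 each), the opposite of the order seen for Hist1h2ah.

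The 1 called higher was Hist2h3c2, an H3 gene at chr2:198380426-198380836 on the minus strand, 961 bases from Hist2h2aa2. It stood at 0.0631 ± 0.0671 CPM in untreated OPCs and 3.08 ± 0.65 CPM in untreated OLs (log2 fold change 5.46, adjusted p = 1.95e-05, edgeR's quasi-likelihood test). A row of the same length, 411 bases, lies 964 bases beyond Hist2h2aa3 on its other side (ENSRNOG00000053081), so that the cluster reads outward in the same order from its centre. Chosen after its values were seen, this row, named LOC102549173, was at 0.352 ± 0.186 CPM in untreated OPCs and 3.99 ± 1.04 CPM in untreated OLs. It was at 4.16 ± 1.12 CPM in DMSO-treated OLs and 0.884 ± 0.479 CPM in DTG-treated OLs (n = 4 each). Another row with that name and length (ENSRNOG00000050478) went the other way between the untreated stages. That row was at 2.46 ± 0.83 CPM in untreated OPCs and 0.664 ± 0.159 CPM in untreated OLs (log2 fold change -1.90). It was at 0.740 ± 0.206 CPM in DMSO-treated OLs and 0.360 ± 0.055 CPM in DTG-treated OLs.

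Between DTG-treated and DMSO-treated OLs, 6 of the 8 histone genes passed the filter and 1 was called lower, where 0.212% of all genes were: Hist2h3c2 (log2 fold change -2.12, SE 0.34, adjusted p = 0.0104, edgeR's quasi-likelihood test). Hist1h3a had a log2 fold change of -1.66 (adjusted p = 0.0568, the same edgeR test). Both were known by name only through the study's list for this contrast, so they are no independent evidence. The values were -0.72 for Hist1h2an, -0.51 for H2afx, 0.17 for H2afz and 0.09 for Cenpa, none of them called. Without replicate 2, 3 or 4 in turn, 0 of the 6 were called. In OPCs with DTG, 0 of the 7 tested were called, as for the whole table.

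**Figure D4:**
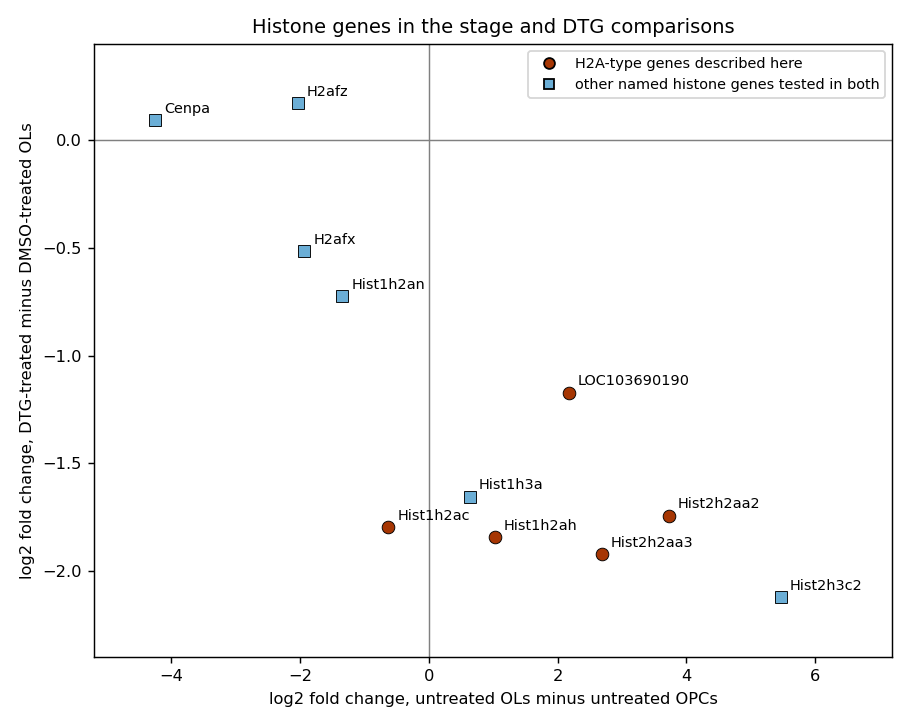
Each point is a histone gene, with its log2 fold change between untreated OLs and untreated OPCs on the horizontal axis and between DTG-treated and DMSO-treated OLs on the vertical axis. The 5 H2A-type genes (circles) lie at -1.17 or below on the vertical axis, where their choice placed them, and from -0.63 to 3.73 on the horizontal axis; Hist2h3c2 lies at 5.46 and -2.12, and Cenpa and H2afz lie to the left, near 0 on the vertical axis.

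Of 5 histone mRNA factors with an identifier, 2 were called lower in untreated OLs than in untreated OPCs, where 11.9% of all genes were. These were Slbp, which binds the stem-loop of histone mRNA (log2 fold change -2.16), and Lsm11, a part of the snRNP that cuts its 3′ end (-1.87). Casp8ap2, Cpsf2 and Eri1 were at -0.91, -0.53 and -0.71 without a call. Between DTG-treated and DMSO-treated OLs 0 of these 5 were called, with Slbp at 0.27. Among histone chaperones, 4 of 7 were called lower in untreated OLs, against the same 11.9% of all genes: Nasp (-1.48), Asf1b (-3.19), Chaf1a (-1.71) and Chaf1b (-2.44). With DTG in OLs 0 of 7 were called, and all 7 had a log2 fold change below 0 (median -0.31).

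For each of the 5 genes, the pattern over the 6 groups was compared with that of 2102 other named genes by the root mean square (RMS) difference of mean log2 CPM, each centred on its own mean. These other genes were named through the study's lists of differing genes. The 6 groups also include the DTG-treated and DMSO-treated OLs behind the choice of the 5. Genes lower with DTG in OLs were thus likely to come out near, and the nearness is a description. Hist2h2aa2 was nearest to S1pr5, a sphingosine 1-phosphate receptor, with an RMS difference of 0.19, and next to Hist2h3c2 (0.27). S1pr5 was at 2.43 ± 0.96 CPM in untreated OPCs, 29.3 ± 9.04 CPM in untreated OLs, 35.8 ± 9.57 CPM in DMSO-treated OLs and 13.2 ± 4.02 CPM in DTG-treated OLs. Hist2h2aa3 was nearest to Gpd1, a glycerol 3-phosphate dehydrogenase (0.23), LOC103690190 to Prickle1 (0.24), Hist1h2ah to Prr22 (0.21) and Hist1h2ac to Tmem179 (0.23). Among the 5 themselves, the nearest were Hist2h2aa2 and Hist2h2aa3 (0.46) and Hist2h2aa3 and LOC103690190 (0.53), and the farthest were Hist2h2aa2 and Hist1h2ac (1.97).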

How the data were processed

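RNA from rat OPC and OL cultures was sequenced from poly(A)-enriched libraries. Per the labels and the study's methods, the authors demultiplexed with bcl2fastq 2.20, aligned trimmed reads to Rnor_6.0 with STAR 2.5.2b and deposited the whole-number counts of unique reads in exons from featureCounts (Subread 1.5.2). ERCC rows were kept out of library sizes. From these counts, filterByExpr, TMM scaling and edgeR 4.0.16's quasi-likelihood test (R 4.3.3) were run for 8 comparisons of 2 groups, with Benjamini-Hochberg adjustment over all genes tested. CPM were scaled by TMM over 22 libraries. The fits were tested on simulated data. The alternatives were DESeq2 1.42.0, other scalings, no filter, the replicate number as a block, fewer replicates and all libraries on the 21651 shared identifiers.

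The 5 genes and all lists were chosen with earlier results of these data known. Symbols came from the study's tables (2107 identifiers). Named beyond the 5 were list genes, genes sharing a cluster with one of the 5, and for each the 3 named genes nearest in pattern, of which the nearest is printed. Library names start alike for the same replicate number in every group, but no source says that same-numbered libraries share a litter, so the fits were unpaired.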

Additional observations from a re-analysis of the deposited data

Results flagged for a closer look

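In each group of 4 libraries the highest and the lowest CPM of each of the 5 genes were compared with the rest, 20 groups in all, and 1 stood apart. Hist1h2ac in DTG-treated OLs was at 0.852 CPM (14 reads) in replicate 4, against 0.368 to 0.434 CPM in the other libraries, so that the gap to the nearest took 0.862 of the whole range. Chance alone picks out about 1 in 20 groups.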

How the results depend on the processing

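The counts of called genes among the 5 were 4 in untreated OLs against untreated OPCs (2 with scaling to the ERCC counts, 3 in each fit without 1 replicate) and 0 in both OPC comparisons under every alternative that gave a value. Of the 8 other histone genes, 7 were called between the untreated stages. On all libraries with shared identifiers 4 were called, and 4 were in that fit. None of the 5 H2A-type genes is in it. Between DTG-treated and DMSO-treated OLs 1 was called, against 2 with DESeq2's Wald test, 2 without a filter, 2 with the replicate block, 0 with ERCC scaling and 0 to 1 without 1 replicate. Over all genes that contrast had 74 calls, 129 with DESeq2's Wald test, 173 with the replicate block, 19 with ERCC scaling, and 82, 32, 29 and 34 without replicate 1, 2, 3 and 4. The replicate block called 4 genes between DMSO-treated and untreated OPCs, and it changed no call of the 5 genes. It added Hist1h3a to the histone genes called with DTG in OLs (adjusted p = 0.00203, edgeR). Deviations of same-numbered libraries correlated at 0.02 to 0.12 between the untreated stages, -0.07 to 0.79 for DTG in OPCs, 0.49 to 0.74 for DMSO in OPCs and 0.03 to 0.37 for DTG in OLs. Those of untreated OLs correlated at 0.24 to 0.33 with DMSO-treated OLs and at 0.38 to 0.45 with DTG-treated OLs. Between the stages the range was 0.03 to 0.44 with DMSO and -0.29 to 0.30 with DTG. The causes of these shifts were not tested.

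With ERCC scaling the sign of the log2 fold change turned for Hist2h2aa2 (-0.23) and Hist2h2aa3 (-0.011) between DMSO-treated and untreated OLs, for Hist1h2ac (-1.16) and Hist1h2ah (-0.84) between the stages with DMSO, for LOC103690190 (-0.049) between the stages with DTG, and for Hist1h2ac (0.24) and LOC103690190 (0.26) with DTG in OPCs. Leaving out 1 replicate at a time, Hist1h2ac ran from -1.23 to 0.0041 (without replicate 1) between the untreated stages, from -0.25 (without replicate 3) to 0.72 between the stages with DMSO, from -0.50 to 0.015 (without replicate 4) with DTG in OPCs and from -0.37 (without replicate 4; -0.03 without replicate 2) to 0.39 with DMSO in OPCs. Hist1h2ah ran from -0.79 to 0.21 (without replicate 1) with DTG in OPCs and from -0.91 (without replicate 1) to 0.50 with DMSO in OPCs. Hist2h2aa2 with DMSO in OPCs, at 0.0019, was at -0.0058 with DESeq2, -0.026 with its size factors, -0.0024 without a filter and -0.23 to 0.18 without 1 replicate. In the contrast of DTG-treated with DMSO-treated OLs 0 of 45 alternative values changed sign. The OPC values rest on 0 to 42 reads per library.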
